A study of Mus musculus with 12 samples.

Results

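Cardiomyocytes of mice fed a high fat diet were compared between 3 libraries labelled ApoE KO and 2 labelled wild type. These are 5 of the 12 libraries of the study, chosen by genotype and diet as their titles give them, and all genes with enough counts were examined. The study crossed genotype with diet in cardiomyocytes, with 3 libraries titled for each of 4 groups. The knockout group carried the B6.129P2-Apoe tm1Unc/J allele and the control group was C57BL/6J. All animals were male, were 7 to 8 weeks old, and received for 7 weeks a Western diet that is high in fat and in cholesterol (0.21%). The other groups received standard chow for the same 7 weeks. The third wild-type library on the high fat diet was left out. In its deposited file, 68.6% of the counts over 2282 pairs of overlapping coding and non-coding genes lay on the non-coding gene (95% Wilson interval 68.4 to 68.8%, counting error only), against 0.4685 to 0.5734% in the other 11 libraries. That file holds counts of the opposite strand.

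Apolipoprotein E coats remnant lipoproteins and lets the liver clear them, so mice without it accumulate cholesterol-rich particles in blood, all the more on a Western diet. Heart muscle takes most of its energy from fatty acids. The nuclear receptor PPAR-alpha, when bound by fatty acids, raises transcription of genes for fatty acid uptake and oxidation. The Apoe tm1Unc allele was made in stem cells of a 129 strain and crossed to C57BL/6, and such lines can keep donor-strain DNA beside the targeted gene. Whether this line does was not tested.

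The 5 libraries held 34155552 to 46424614 counts, of which 9807417 to 16412505 fell on genes outside the mitochondrial genome. Counts of the mitochondrial genome made up 66.9% and 64.6% of the wild-type libraries and 55.4%, 71.3% and 64.0% of the knockout libraries. Nothing in the labels says that the replicates came from different animals. The p-values therefore reflect variation among libraries, which may be technical. The 14 cardiomyocyte markers summed to 88980 to 97890 CPM (counts scaled to the library's size) over the 5 libraries, and none of them was near 0. Of the 19 lymphocyte and neutrophil markers, Nkg7 was at 0 and 15 others had under 10 counts in each of the 5 libraries.

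Apoe (chr7:19696109-19699188, GRCm38), the targeted gene, checked the labels first. Its TMM-scaled CPM was 18.9 and 8.44 in the wild-type libraries and 1.94, 3.02 and 3.16 in the knockout libraries. The groups did not overlap, and both wild-type libraries were above all knockout libraries. The log2 fold change, knockout minus wild type, was −2.34 (SE 0.55), with an adjusted p of 0.832 in edgeR's quasi-likelihood test (Benjamini-Hochberg), so the difference did not pass. DESeq2 called it, with an adjusted p of 0.0476, and so did edgeR without knockout chow library 3 (adjusted p 0.00291). The counts cover the whole gene and not the disrupted stretch alone. On chow, Apoe went against the labels, with a log2 fold change of 2.69, so chow libraries are named below only as labelled. Lyz2, a macrophage gene, was also highest in wild-type library 1, at 5.92 CPM against 0.802 in wild-type library 2 and 2.20, 2.02 and 2.76 in the knockout libraries. Macrophages make Apoe, and the part of this marker in the Apoe difference was not tested.

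Few genes separated the genotypes on the high fat diet. Lgals4 and Actg1 fell in the libraries labelled knockout, and Igsf23, Pnmal2, Blvrb, Zfp30 and Ccdc8 rose. These 7 are among 8 called genes, which were 0.0472% of the 16932 genes tested, at an adjusted p under 0.05. An unadjusted p under 0.05 was reached by 480 genes (2.83%), of which 237 were higher (1.4%) and 243 lower (1.44%). DESeq2 called 28 genes and limma voom with sample weights called 39, and both included all 8.

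**Figure D1:**
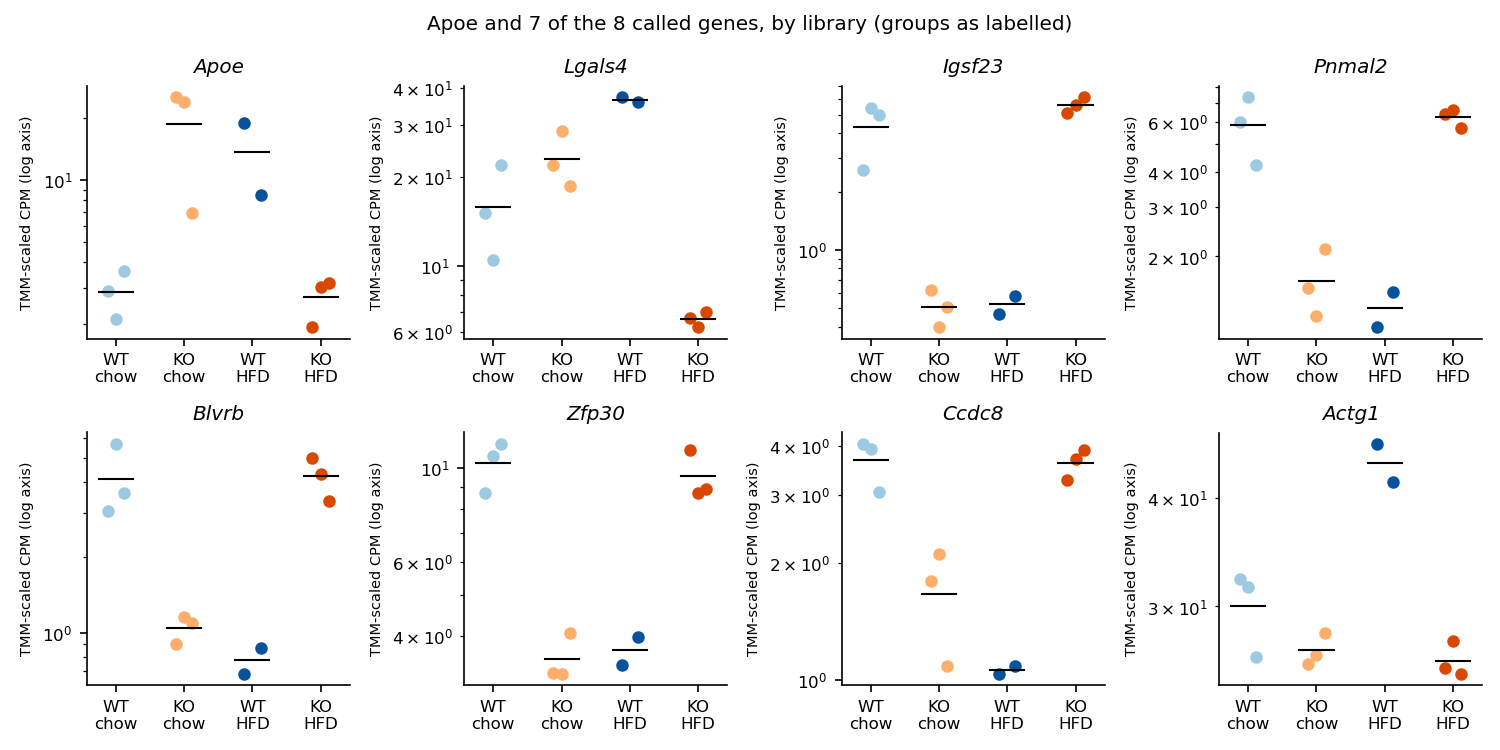
TMM-scaled CPM (log axis) of Apoe and of 7 of the 8 called genes in each of 11 libraries, by group as labelled; points are libraries and bars are group means. On the high fat diet the WT and KO points do not overlap in any panel, for example 37.2 and 36.0 against 6.23 to 7.01 for Lgals4.

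Of the 8 called genes, 6 lie on chromosome 7, the chromosome of Apoe. Lgals4 encodes galectin-4, a lectin best known from gut epithelium, and lies at chr7:28833854-28841708, which is 9.135 Mb from Apoe. Its CPM was 37.2 and 36.0 in the wild-type libraries and 6.70, 6.23 and 7.01 in the knockout libraries. The replicates of each group lay close together and far from the other group. Lgals4 fell by 2.46 on the log2 scale (SE 0.23, edgeR adjusted p 7.18e-05), or 5.49-fold. Some mouse strains carry Lgals6, a near-identical copy, so the assignment of reads to this gene is uncertain. On chow the log2 fold change by label was 0.54, and it did not pass (adjusted p 0.212).

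Igsf23, a gene of the immunoglobulin superfamily at chr7:19937305-19950756, is 0.238 Mb from Apoe. Its CPM was 0.466 and 0.579 in the wild-type libraries and 5.07, 5.60 and 6.14 in the knockout libraries. It was low in both wild-type libraries and about as high in each knockout library. Igsf23 rose by 3.41 on the log2 scale (SE 0.34, edgeR adjusted p 7.54e-05). It was called in every one of the alternative fits, including those that left out 1 library.

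Pnmal2 and Ccdc8 lie next to each other, 2.747 and 2.699 Mb from Apoe on the opposite side from Igsf23. Pnmal2 (chr7:16944682-16948828), a gene of the paraneoplastic antigen family, had 1.12 and 1.49 CPM in wild type and 6.41, 6.64 and 5.71 in knockout. It rose by 2.25 on the log2 scale (SE 0.28, edgeR adjusted p 0.00145). Ccdc8 (chr7:16992708-16997516), a partner of the ubiquitin ligase subunit Cul7, had 1.04 and 1.09 CPM in wild type and 3.28, 3.70 and 3.91 in knockout. Ccdc8 rose by 1.76 (SE 0.29, edgeR adjusted p 0.0259). Each group was tight for both genes, and no library of one group reached the other.

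Blvrb and Zfp30 lie on the same side as Lgals4. Blvrb (chr7:27447978-27466144) encodes a flavin and biliverdin reductase of haem breakdown, and had 0.685 and 0.868 CPM in wild type against 4.999, 4.33 and 3.36 in knockout. Blvrb rose by 2.43 on the log2 scale (SE 0.32, edgeR adjusted p 0.00211). Zfp30 (chr7:29783998-29794702), a zinc finger gene 10.085 Mb from Apoe, had 3.42 and 3.99 CPM in wild type against 11, 8.73 and 8.89 in knockout. Zfp30 rose by 1.36 (SE 0.20, edgeR adjusted p 0.00638). Pnmal2 and Blvrb lost their call without wild-type library 1 (adjusted p 0.0683 and 0.0963). Zfp30 lost it without either wild-type library, and Ccdc8 kept it in 5 of the 11 fits that left out 1 library.

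Within 10 Mb of Apoe, 244 genes were tested and 5 were called (2.05%), against 3 of 16688 elsewhere (0.018%). An unadjusted p under 0.05 was reached by 13.5% of the genes in this window and by 2.68% of the others. The 5 libraries did not overlap between groups for 32.4% of the genes in the window, against 21.5% outside it and 21.7% of all genes tested. Of the 33 window genes with an unadjusted p under 0.05, 25 had the opposite sign on chow, and 11 of the 33 were called on chow. Outside the window, 204 of 447 such genes had the opposite sign and 17 were called on chow. Igsf23 had a log2 fold change of −3.06 on chow by label, Blvrb −1.97, Pnmal2 −1.82, Zfp30 −1.53 and Ccdc8 −1.16, and all 5 were called there, among 0.508% of all genes. Thus the libraries labelled wild type on chow and knockout on the high fat diet shared the higher level of these 5 genes.

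**Figure D2:**
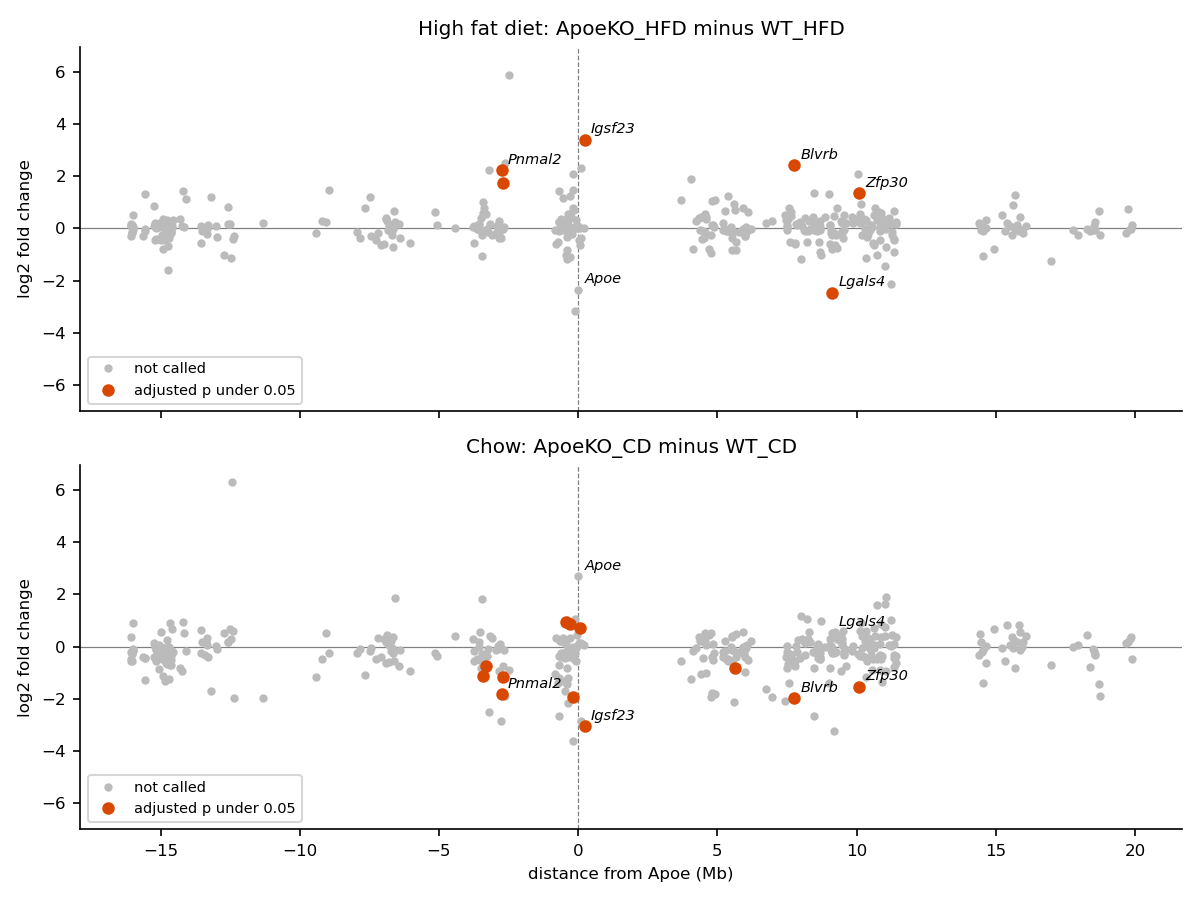
Log2 fold change, knockout minus wild type by label, of tested genes within 20 Mb of Apoe against their distance from Apoe in Mb, on the high fat diet (upper panel) and on chow (lower panel); coloured points have an adjusted p under 0.05. Igsf23, Pnmal2, Blvrb and Zfp30 lie above 0 on the high fat diet and below 0 on chow, and Apoe does the reverse.

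Further genes of this window missed the threshold in edgeR over 11 libraries. Bcam, a laminin receptor whose span overlaps the annotated gene Gm45114 on the same strand, had 79.4 and 76.9 CPM in wild type and 51.1, 51.3 and 46.9 in knockout. Its groups did not overlap, as the rule that named it required, and its log2 fold change was −0.65 (SE 0.14, edgeR adjusted p 0.142). DESeq2 called Bcam (adjusted p 0.0014), as did limma voom (0.0037) and edgeR without the filter on low counts (0.0205). Ppp1r37, which encodes a regulatory subunit of protein phosphatase 1, had a log2 fold change of 0.71 (edgeR adjusted p 0.597), and limma voom called it (adjusted p 0.0109), as did edgeR on the 5 libraries alone (0.0467). Hif3a, Ercc2, Trappc6a and Vasp, named after their values were seen, had log2 fold changes of 2.51, −1.08, 1.49 and −1.01. Their edgeR adjusted p-values were 0.0897, 0.0795, 0.0886 and 0.115, and DESeq2 called all 4.

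Genes of ketone use did not pass in edgeR over 11 libraries. Bdh1, the mitochondrial dehydrogenase of 3-hydroxybutyrate, had 35.7 and 40.6 CPM in wild type and 82.4, 59.9 and 67.1 in knockout. The groups did not overlap, and the log2 fold change of 0.87 (SE 0.28, unadjusted p 0.00715) did not pass in edgeR. A fit of the 5 libraries alone called Bdh1 (adjusted p 0.038), as did the fit without the filter (0.0031). Oxct1, the enzyme that activates ketone bodies for oxidation, had a log2 fold change of 0.33 (SE 0.19) with overlapping groups. Of the 21 genes of ketone and branched-chain amino acid catabolism, none was called, 13 were above 0 and the median was 0.03, beside 0.01 over all genes tested.

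PPAR-alpha responsive genes were mostly lower in the knockout libraries, and 1 was called lower. Of 20 members tested, 19 had a log2 fold change below 0, against 48.1% of all genes tested, and the median was −0.25. An unadjusted p under 0.05 with a lower level was reached by 3 members, beside 1.44% of all genes, and for 6 members the knockout libraries all lay below both wild-type libraries, beside 10.3%. Acot1, a cytosolic acyl-CoA thioesterase, had 6.08 and 10.04 CPM in wild type and 3.92, 2.80 and 4.11 in knockout. Acot2, its mitochondrial relative, had 53.9 and 56.1 CPM in wild type and 36.7, 28.6 and 25.1 in knockout. The groups did not overlap for either gene. The log2 fold changes were −1.15 (SE 0.22, edgeR adjusted p 0.0886) and −0.87 (SE 0.20, adjusted p 0.295), and DESeq2 called both. Acot1 and Acot2 are near copies of each other, so the split of reads between them is uncertain.

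Other members differed less. Pdk4, the kinase that shuts pyruvate out of the citric acid cycle, had 225 and 400.1 CPM in wild type and 241, 128 and 231 in knockout, and the groups overlapped. Fabp3, the heart fatty acid binding protein, had 879 and 1017 CPM in wild type and 926, 629 and 587 in knockout, with overlap through knockout library 1. Cd36, the fatty acid translocase, had a log2 fold change of −0.30 and Cpt1a, the liver form of the mitochondrial carnitine transferase, −0.30. Ppara itself had 22.9 and 27.1 CPM in wild type and 27.4, 27.3 and 26.6 in knockout, a log2 fold change of 0.11 (SE 0.18).

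None of the 25 fatty acid oxidation enzymes tested was called by edgeR over 11 libraries with its filter on low counts. This list shares members with the PPAR-alpha list, Acot2 and Cpt1a among them. Acot2 was called by edgeR on the 5 libraries alone (adjusted p 0.0383) and without the filter (0.0002). Of the 25 enzymes, 22 were below 0, beside 48.1% of all genes, and the median was −0.26. For 6 enzymes the knockout libraries all lay below both wild-type libraries, beside 10.3% of all genes, and for none did they lie above. Ech1, a dienoyl-CoA isomerase that lies beside Lgals4 on chromosome 7, had 218 and 242 CPM in wild type and 185, 111 and 108 in knockout. Its log2 fold change was −0.77 (SE 0.25), with an unadjusted p of 0.00637, and edgeR without the filter called it (adjusted p 0.0007). Decr1, a reductase of unsaturated fatty acid oxidation, had 112 and 138 CPM in wild type and 104, 73.2 and 82.4 in knockout, and did not overlap either. Hadha, a subunit of the trifunctional protein, had 540 and 660 CPM in wild type and 559, 415 and 421 in knockout. In these 3 enzymes knockout library 1 was the knockout library nearest to wild type, and in Hadha it lay above wild-type library 1.

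The medians of both lists depended on single libraries. Without wild-type library 2 they were −0.10 for the oxidation enzymes and −0.11 for the PPAR-alpha responsive genes, and without wild-type library 1 they were −0.37 and −0.39. With the opposite-strand file included, the medians were 0.15 and 0.13, above 0. On chow by label, the medians were −0.12 and −0.38. Nuclear oxidative phosphorylation genes, whose products use the electrons that oxidation delivers, had a median of −0.03 over 50 genes. None of them was called, and none was apart between groups, beside 21.7% of all genes tested. Of the 17 PPAR, PGC-1 and ERR regulators, 10 were above 0 and none was called.

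**Figure D3:**
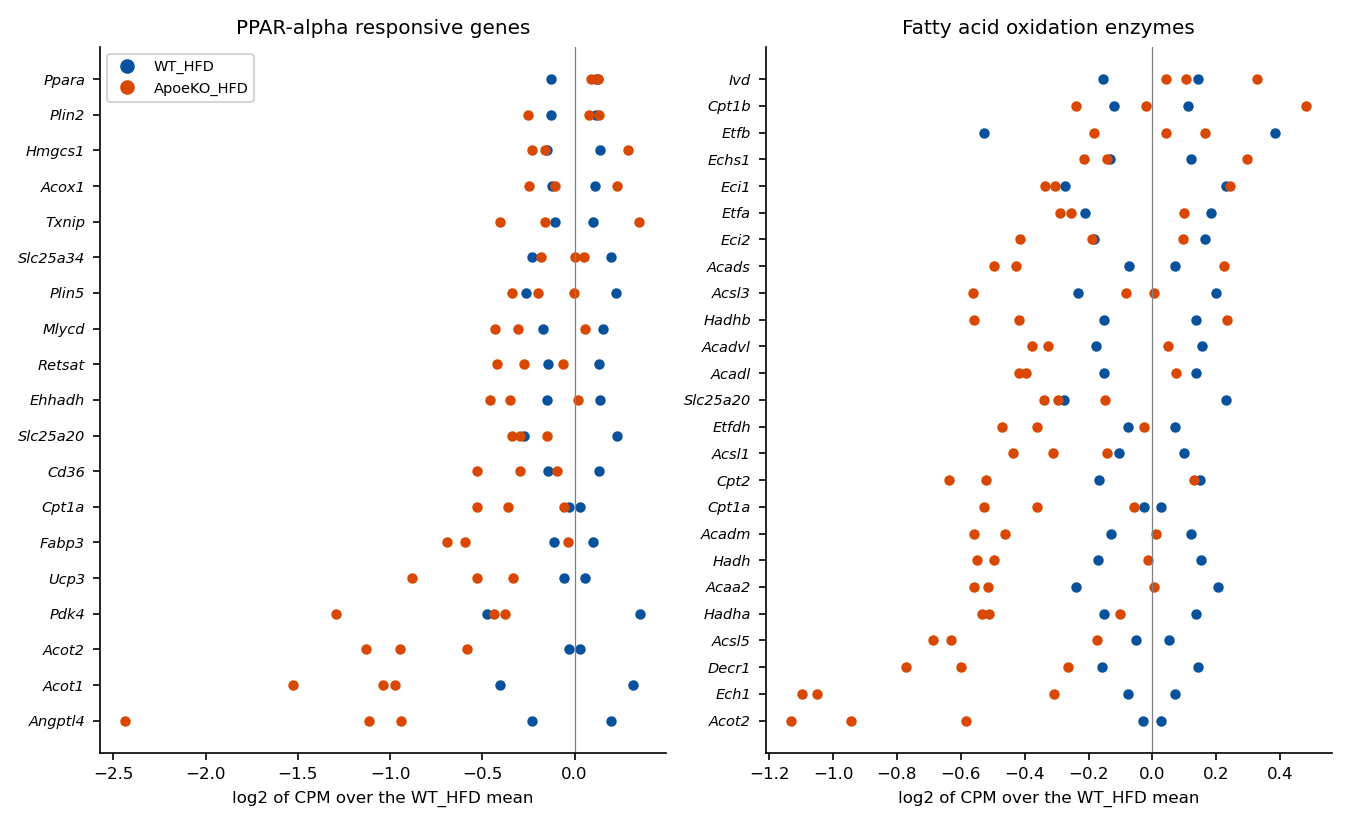
Log2 of each library's CPM over the mean of the 2 wild-type libraries, for PPAR-alpha responsive genes (left) and fatty acid oxidation enzymes (right) on the high fat diet; each point is a library, and 1 member of the left list is not drawn. Acot1 and Acot2 show knockout points below both wild-type points, whereas Ppara and Cpt1b show overlap.

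The promoters of these genes were searched for the core of the element that PPAR-alpha binds. Of the RefSeq promoters (250 bases before the start, GRCm38.p6), 17 of the 20 PPAR-alpha responsive genes had an entry. The letters AGGTCA, on both strands, stood in 7 of the 17 (41.2%), against 15.8% of all 27025 genes with a promoter and 13.4% of genes tested. Among fatty acid oxidation enzymes they stood in 4 of 22 (18.2%), near the share of all promoters. The direct repeat DR1, which joins a pair of these cores and so overlaps them, stood in none of the 17, and in 0.0407% of all. A match describes letters in this window only.

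Actg1 fell too. It encodes cytoplasmic gamma-actin, part of the cell's cortical skeleton (chr11:120345690-120348542). Its CPM was 46.1 and 41.7 in the wild-type libraries and 25.5, 27.4 and 25.1 in the knockout libraries. Wild type on the high fat diet stood above the other 3 groups, whose 9 libraries ranged from 25.1 to 32.3. Actg1 fell by 0.76 on the log2 scale (SE 0.13, edgeR adjusted p 0.0485), or 1.69-fold. The call was kept in 2 of the 11 fits that left out 1 library. Actb, the beta form, had 119 and 92.2 CPM in wild type and 55.8, 65.4 and 69.7 in knockout, a log2 fold change of −0.73 (SE 0.17) that edgeR did not call (adjusted p 0.253) and DESeq2 did (adjusted p 0.029). The 2 actin genes are similar in sequence, so the split of reads between them is uncertain. The Actg1 promoter holds a CArG box, the element bound by serum response factor, as do 1.62% of all RefSeq promoters (both strands searched). It is shown because the same element is known from many immediate early genes. The stretch shown is chr11:120348543-120348745 on the minus strand, the part of the promoter before the annotated exon, with the CArG box in capitals.
Actg1: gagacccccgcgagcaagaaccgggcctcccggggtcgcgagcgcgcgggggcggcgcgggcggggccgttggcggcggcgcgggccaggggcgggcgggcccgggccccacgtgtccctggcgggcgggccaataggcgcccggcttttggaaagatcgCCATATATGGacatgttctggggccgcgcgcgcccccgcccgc

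Immediate early genes, which cells transcribe within minutes of a stimulus, leaned lower in the knockout libraries. Of 25 tested, 24 had a log2 fold change below 0, the median was −0.60 beside 0.01 over all genes, and none was called by edgeR. An unadjusted p under 0.05 with a lower level was reached by 17 of 25, beside 1.44% of all genes, and the same number did not overlap between groups, beside 10.3%. This list was examined with earlier results of these libraries known, so its counts are not independent support. Fos, a subunit of the AP-1 factor, had 104 and 65.5 CPM in wild type and 48.0, 50.4 and 47.9 in knockout. Zfp36, which speeds decay of cytokine messages, had 52.1 and 32.2 CPM in wild type and 27.6, 20.6 and 18.6 in knockout. Zfp36 lies 8.678 Mb from Apoe and Fosb, another member, 0.386 Mb, so both belong to the 10 Mb window. In Fos and Zfp36 wild-type library 1 was the highest, and all knockout libraries were below wild-type library 2. The log2 fold changes were −0.80 for Fos (SE 0.21, edgeR adjusted p 0.597) and −0.92 for Zfp36 (SE 0.23, adjusted p 0.517).

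The other early genes are named here after their values were seen. Egr1, a zinc finger transcription factor, had 157 and 90.8 CPM in wild type and 72.2, 62.6 and 57.1 in knockout. Ier2 had 23.3 and 12.3 CPM in wild type and 11.2, 7.39 and 6.24 in knockout. Both genes showed wild-type library 1 far above the rest, and their groups did not overlap. Atf3, a stress-responsive factor, had 70.7 and 53.4 CPM in wild type and 46.0, 35.0 and 30.7 in knockout. Jun, the partner of Fos, had 201 and 154 CPM in wild type and 160, 108 and 101 in knockout, so knockout library 1 lay between the wild-type libraries. Dusp1, a phosphatase of MAP kinases, had 82.1 and 70.5 CPM in wild type and 65.0, 43.8 and 45.6 in knockout, without overlap. Gadd45b, a growth arrest gene, was the 1 member above 0, at 0.01.

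The median of the early genes was −0.46 without wild-type library 1, −0.77 without wild-type library 2 and −0.78 without knockout library 1. With the opposite-strand file included it was −0.31. Without the filter on low counts, edgeR called 7 of the members (Atf3, Egr1, Fos, Fosb, Ier2, Klf4 and Zfp36), limma voom called 2 (Dusp1 and Klf4), and DESeq2 called none. Of all genes in the same settings, edgeR without the filter called 0.1%, limma voom 0.23% and DESeq2 0.165%. The 21 heat shock genes, another stress-responsive group, had a median of 0.08, with 13 above 0 and none called. On chow the early genes had a median of −0.47 by label.

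**Figure D4:**
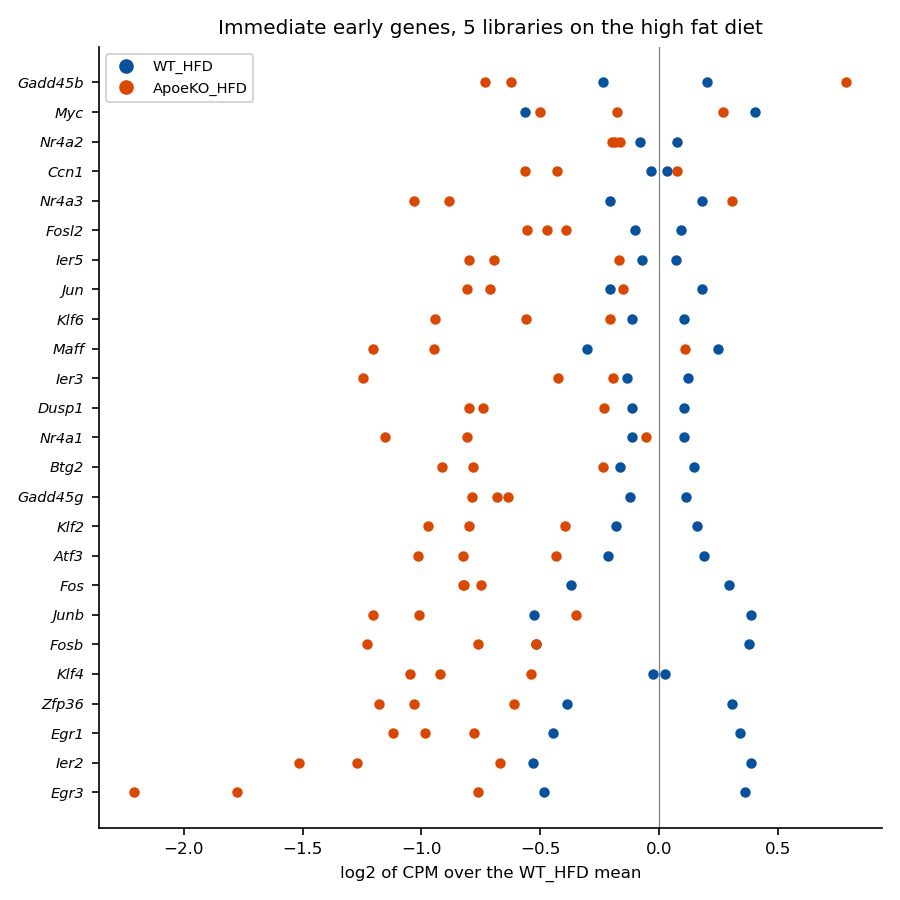
Log2 of each library's CPM over the mean of the 2 wild-type libraries, for 25 immediate early genes on the high fat diet; each point is a library. Knockout points lie below both wild-type points for 17 genes, and knockout library 1 accounts for the single high point of Gadd45b.

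Of the 25 early genes, 21 had a RefSeq promoter. The letters TGACG, the core of the element bound by CREB and ATF factors, stood on either of both strands in 13 of the 21 (61.9%), against 19.8% of all promoters and 28.9% of those of tested genes. A CArG box was found in 1 of the 21, Zfp36. The 13 include Fos, Fosb and Junb, which encode AP-1 subunits. Fos and Junb are shown as examples, with the motif in capitals, as chr12:85473640-85473889 on the plus strand and chr8:84978749-84978998 on the minus strand. Fos holds 2 matches and Junb 1. Junb had 43.4 and 23.1 CPM in wild type and 26.1, 16.5 and 14.5 in knockout, so its groups overlapped.
Fos: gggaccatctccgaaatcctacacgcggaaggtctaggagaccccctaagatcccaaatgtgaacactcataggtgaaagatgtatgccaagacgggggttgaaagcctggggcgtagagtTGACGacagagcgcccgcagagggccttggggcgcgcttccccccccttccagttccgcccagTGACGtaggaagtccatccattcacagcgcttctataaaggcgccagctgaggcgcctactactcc
Junb: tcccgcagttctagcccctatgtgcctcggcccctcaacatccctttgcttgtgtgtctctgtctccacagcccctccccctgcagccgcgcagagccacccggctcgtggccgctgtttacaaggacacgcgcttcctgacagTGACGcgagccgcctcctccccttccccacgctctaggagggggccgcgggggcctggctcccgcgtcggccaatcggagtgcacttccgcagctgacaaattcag

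No gene of the LXR or cholesterol lists passed in edgeR over 11 libraries. Srebf1, the transcription factor of fatty acid synthesis, had 26.4 and 25.5 CPM in wild type and 15.6, 16.6 and 15.5 in knockout. Both groups were tight, and the log2 fold change was −0.71 (SE 0.21, unadjusted p 0.00317). On chow Srebf1 was called lower by label, with a log2 fold change of −1.13 (edgeR adjusted p 0.00859). Srebf1 was called in the fit of the 5 libraries alone (adjusted p 0.0383) and without the filter on low counts (0.0258). Among the 20 LXR targets and lipoprotein genes, of which Srebf1 is one, 10 were above 0 and 10 below, with a median of 0.01. The 23 genes of cholesterol synthesis and uptake had a median of −0.01, and none was called or reached an unadjusted p under 0.05.

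Among genes with higher values in the knockout libraries, the following did not pass in edgeR. Akt1, a kinase of the insulin pathway, had 48.4 and 38.9 CPM in wild type and 62.0, 75.7 and 70.5 in knockout, a log2 fold change of 0.67 (SE 0.17, edgeR adjusted p 0.568). Zkscan3, a zinc finger repressor of autophagy genes, had 13.5 and 15.5 CPM in wild type and 24.97, 27.4 and 27.5 in knockout, a log2 fold change of 0.88 (SE 0.19, edgeR adjusted p 0.17). Zkscan3 was called by DESeq2 (adjusted p 0.0131), by limma voom (0.0056) and by edgeR without the filter (0.0077) or on the 5 libraries alone (0.017). Lrrc4b, a synaptic adhesion gene, had 8.96 and 6.88 CPM in wild type and 12.1, 20.2 and 13.7 in knockout. These genes were named from those without overlap between groups, so their lack of overlap is not a result. Over all genes tested, the knockout libraries all lay above both wild-type libraries for 11.3%. Lrrc4b was also called by DESeq2 (adjusted p 0.0296), by limma voom and without the filter, and Akt1 by limma voom (0.0064). Cpxm2, a secreted carboxypeptidase-like protein, had a log2 fold change of 0.91, Ybx3, an RNA-binding protein, 0.53, and Tgm2, a transglutaminase, 0.53. Ppip5k1, a kinase that makes inositol pyrophosphates, had 0.46, and Rhot2, a mitochondrial transport GTPase, 0.46. DESeq2 called Ppip5k1 (adjusted p 0.0331), limma voom called Ybx3 (0.0487), and edgeR without the filter called Cpxm2 (0.0123). Cpxm2 and Rhot2 each overlap another annotated gene on the same strand (Fgfr2 and Wdr90). Abat, the aminotransferase of GABA breakdown, named after its values were seen, had a log2 fold change of 1.16 (SE 0.22, edgeR adjusted p 0.0795) and 1.04 on chow, where it was called. DESeq2 called Abat on the high fat diet (adjusted p 0.0009), and so did limma voom (0.0049), the fit without the filter (0.0031) and the fit of the 5 libraries alone (0.0383).

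Endothelial markers lay lower in the knockout libraries without passing the test. All 23 endothelial markers had a log2 fold change below 0, with a median of −0.42, and none was called by edgeR, whereas limma voom called Cldn5 (adjusted p 0.0095). Their summed level was 606 and 775 CPM in wild type and 576, 481 and 573 in knockout, so all 3 knockout libraries were lower. Gpihbp1, the capillary anchor of lipoprotein lipase, had 4 and 3.99 CPM in wild type and 1.82, 2.43 and 2.40 in knockout. On chow Gpihbp1 was called lower by label, with a log2 fold change of −1.53 (edgeR adjusted p 0.015). Cldn5, a tight junction protein, had 2.25 and 2.23 CPM in wild type and 1.51, 0.560 and 0.501 in knockout. Fewer endothelial cells and less RNA per cell cannot be told apart here. Without wild-type library 2 the endothelial median was −0.16. On chow by label it was −0.60, with 20 of the 23 endothelial markers below 0. Cd36, which supplied most of the summed level, is also a cardiomyocyte gene and stands in the PPAR-alpha list. With a covariate of the summed non-myocyte markers, an alternative chosen after seeing the data, the medians were −0.18 for the PPAR-alpha responsive genes, −0.19 for the oxidation enzymes, −0.57 for the early genes and −0.44 for the endothelial markers themselves. Within that covariate, pericyte and smooth muscle markers summed to 941 and 962 CPM in wild type and to 1159, 1050 and 1014 in knockout. This sum ran against the endothelial sum, so the covariate did not stand for endothelial cells. By member, 9 of the 15 pericyte and smooth muscle markers were below 0, with a median of −0.40. Of 18 fibroblast markers, 14 were below 0, with a median of −0.19, beside 48.1% of all genes below 0. The part of endothelial cells in the other values was not tested.

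Atrial and macrophage markers followed wild-type library 1 more than the groups. Myl7, an atrial light chain, had 14.8 and 0.0668 CPM in wild type and 4.57, 0.261 and 0.601 in knockout. Nppa, the atrial natriuretic peptide, had 107 and 6.48 CPM in wild type and 64.0, 23.4 and 14.8 in knockout. For both genes the knockout libraries lay between the wild-type libraries. The medians were −0.73 over 15 atrial markers and −0.36 over 18 macrophage markers. When 1 library at a time was left out, they ran from −1.11 to 0.31 and from −1.08 to 0.88. Macrophage markers summed to 31.5 and 8.37 CPM in wild type and to 13.3, 12.5 and 18.2 in knockout.

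Extracellular matrix genes had 24 of 27 members below 0, a median of −0.37 and no call. Sparc, a collagen-binding matrix protein, had 15.4 and 18.9 CPM in wild type and 10.6, 11.6 and 13.6 in knockout, without overlap. Its log2 fold change was −0.53 (SE 0.23). Antigen presentation genes had 15 of 21 below 0 and a median of −0.32, and H2-K1, a class I heavy chain, had 9.92 and 8.93 CPM in wild type and 7.53, 6.23 and 7.64 in knockout. NF-kappaB and cytokine genes had a median of −0.38 over 27 genes, and interferon-stimulated genes −0.23 over 32. Neither list held a called gene. Blvrb was the single called member of the antioxidant list, whose median over 28 genes was −0.09.

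Contractile genes lay near 0. Sarcomere and calcium handling genes had a median of 0.06 over 30 genes, with 22 above 0, none called and none with an unadjusted p under 0.05. Myh6, the main myosin heavy chain of the adult mouse heart, had a log2 fold change of 0.06 (SE 0.17), and Tnnt2, cardiac troponin T, 0.10 (SE 0.17). Ckm, the muscle creatine kinase, lies on chromosome 7 at 0.273 Mb from Apoe, inside the window described above. It had 342 and 398 CPM in wild type and 581, 489 and 442 in knockout. Its groups did not overlap, and the log2 fold change of 0.45 (SE 0.16) did not pass. Nppb, the B-type natriuretic peptide, had 37.6 and 43.6 CPM in wild type and 74.7, 62.9 and 57.5 in knockout, a log2 fold change of 0.68 (SE 0.28, unadjusted p 0.0274). The 28 genes of glucose uptake and glycolysis had a median of 0.05 with 20 above 0.

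**Figure D5:**
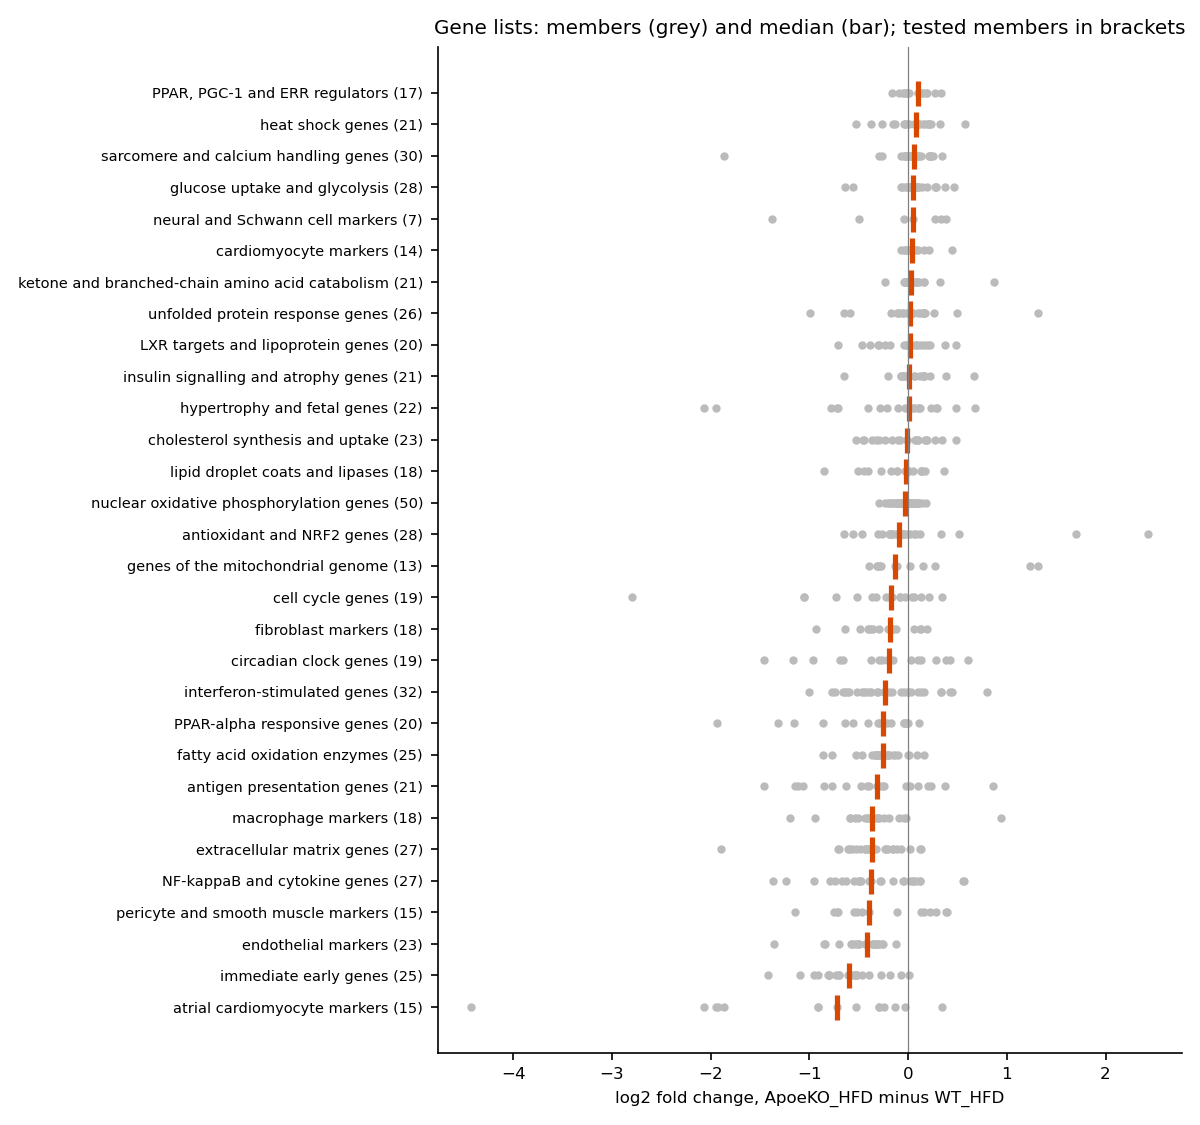
Log2 fold change, knockout minus wild type on the high fat diet, of the tested members of each gene list (grey points) and the list median (bar); lists with fewer than 5 tested members are not drawn. Immediate early genes (−0.60) and atrial markers (−0.73) lie farthest below 0, and sarcomere genes (0.06) and cardiomyocyte markers (0.04) lie near 0.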

How the data were processed

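The deposited values are raw read counts per gene in whole numbers, which the authors did not normalize. The build was GRCm38 (mm10), and the tools were HTSeq 0.13.5, STAR 2.7a and Trimmomatic 0.39, per the submitters' processing notes. Per the labels' protocols, libraries were made with a stranded SMART-Seq kit. Of 55335 gene identifiers, 55154 matched GENCODE M21, which gave symbols and positions, and 181 did not.

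Counts were fitted with edgeR 4.0.16 (R 4.3.3) by its robust quasi-likelihood test, with TMM factors and its filter on low counts by group. All 11 libraries of the 4 groups shared 1 estimate of the spread (7 residual degrees of freedom), and 16932 genes were tested with Benjamini-Hochberg adjustment. CPM values are TMM-scaled. Called genes are those with an adjusted p under 0.05. SE is the log2 fold change divided by the root of F. Alternatives used DESeq2 1.42.0 and limma 3.58.1, other filters and scalings, and fits without 1 library. In simulated data on 15470 genes for this comparison, the test recovered 61 of 100 genes changed 2-fold and 100 of 100 changed 4-fold, with 8 false calls. The simulation gave every gene the same biological coefficient of variation, 0.2, and changed only genes with a mean above 50 counts. Real genes vary in spread and many have fewer counts, so these rates do not carry over to them. Counts of replicates differed beyond sampling noise (chi-square 27.96 to 153.76 for each degree of freedom), and none was treated as a duplicate.

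Genes were named by rule: Apoe, called genes, the 10 higher and 10 lower protein-coding genes of smallest p without overlap between groups and with a mean log2 CPM from 3 up, 2 members of each of 33 lists with a mean log2 CPM from 1 up, and cell markers. The genes and lists were chosen with earlier results of these data known. Some items, 1 called gene among them, are not reported here. Sequences are from RefSeq (GRCm38.p6).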

Additional observations from a re-analysis of the deposited data

Results flagged for a closer look

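For 9 named genes the effect of the genotype label differed between the diets by a test of that difference (edgeR, adjusted over all 16932 genes, of which 37 or 0.219% were called). As the high fat diet log2 fold change minus that on chow, the differences were 6.46 for Igsf23, 4.41 for Blvrb, 4.06 for Pnmal2, 2.92 for Ccdc8, 2.89 for Zfp30 and 1.72 for Zkscan3. They were −5.03 for Apoe (adjusted p 0.0427, and 0.0519 with other size factors, so this call is marginal), −3.00 for Lgals4 and −1.38 for Bcam. The labels on chow go against Apoe in these libraries, so the sign of a chow fold change is that of the labels. The third wild-type library on the high fat diet, used only in the alternative fits with all 12 libraries, had 68.6% of its strand-pair counts on the non-coding gene, and its file carries the header of another library.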

How the results depend on the processing

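The call of 8 genes was the same in number under other size factors, a stricter filter and TMM on nuclear genes. It was 49 without the filter on low counts, 28 with DESeq2, 39 with limma voom and 24 in a fit of the 5 libraries alone, and each of these included all 8. With the opposite-strand file included, 1 gene was called. Within 10 Mb of Apoe the 5 calls became 13, 12, 12, 10 and 1 in those 5 settings, and 3 in a 5 Mb window. Leaving out 1 library gave 4 to 20 calls, with 4 without wild-type high fat library 1, 5 without any 1 knockout high fat library and 20 without wild-type chow library 2. Within 10 Mb it gave 2 (without wild-type high fat library 1) to 10 calls (without wild-type chow library 2). Where 1 wild-type library remained, it was assumed to vary like the other groups. Apoe ran from −2.82 to −1.66 without 1 library, passed with DESeq2 (−2.34) and passed without knockout chow library 3 (−2.35). With a replicate block 7 genes were called, and Actg1 was lost (adjusted p 0.272). Of 15 same-number pairs of libraries, 2 had deviations correlating above 0.1 (range −0.256 to 0.217). Pairs of different number were not compared, so these values do not settle whether replicate numbers pair the libraries. Covariates of atrial and of non-myocyte markers gave 6 and 8 calls, of which 6 and 5 were among those reported. None of the 7 called genes described reversed its direction under these alternatives. The 2 wild-type libraries limit the precision of every value, most for genes of low counts.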

Other observations

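Chromosome 7 held 82 genes with an unadjusted p under 0.05 among 1325 tested (6.19%), and the other chromosomes ranged from 1.73% to 4.24%. Ide, the insulin-degrading enzyme on chromosome 19, had a log2 fold change of −1.13 (SE 0.33) that edgeR over 11 libraries did not call, whereas the fit of the 5 libraries alone did. Ucp2, a mitochondrial carrier, had −1.11 (SE 0.24, adjusted p 0.197), and Sema3g, an endothelial semaphorin, −1.35 (SE 0.27, adjusted p 0.101), and DESeq2 called both. These 3 genes were named after their values were seen.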
